A study of Mus musculus with 12 samples.

Results

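The unfolded protein response was followed here through 35 genes in primary hepatocytes of mice that carried either the mouse or the human aryl hydrocarbon receptor (AHR), with and without the dioxin TCDD. The 35 genes were a fixed list: each entered when it had a probe set annotated to that symbol alone, and its brightest probe set over the 12 arrays stood for it. All 35 listed genes were measured, out of 18193 genes on the arrays. They were held in 4 branches: 15 endoplasmic reticulum (ER) chaperones and folding enzymes, 4 genes of the sensors and the XBP1 factor together, 9 genes of the ATF4 branch, and 7 genes of ER-associated degradation and the translocon. In counts by branch those 4 genes, Xbp1 among them, are called the sensors.

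Wild type cells came from C57BL6/J mice. Human AHR cells came from the strain B6.Cg-Ahrtm3.1Bra carrying the transgenes Alb-cre and Ttr-AHR (1Ghp), in which the mouse Ahr gene is flanked by loxP sites and removed by Cre under the albumin promoter, which is active in hepatocytes, while human AHR is driven by the transthyretin promoter. All cells, controls included, were cultured for 48 h in a medium with 2.5% dimethyl sulfoxide (DMSO) and 10 nM dexamethasone, a synthetic glucocorticoid, and then received DMSO vehicle or 10 nM TCDD for 6 h. Each of the 4 groups held 3 arrays. The design text gives each array a mouse of its own; both wild type arrays numbered 2 alone had high Xist, so whether same-numbered arrays share an animal cannot be told. The labels give no ages. TCDD, or 2,3,7,8-tetrachlorodibenzo-p-dioxin, binds AHR, which then pairs with ARNT and drives genes such as Cyp1a1.

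Secreted proteins fold in the ER, and hepatocytes secrete a great deal of protein. When unfolded protein builds up, 3 ER membrane sensors respond. IRE1 (gene Ern1) splices the mRNA of XBP1, ATF6 is cleaved to release a transcription factor, and PERK (gene Eif2ak3) phosphorylates eIF2-alpha, which slows translation but favours that of ATF4. XBP1 and ATF6 drive chaperones and degradation genes through ER stress response elements, and ATF4 drives amino acid genes and the factor CHOP (gene Ddit3) through C/EBP-ATF response elements.

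The branches differ in the letters of their promoters. RefSeq promoter sequences (build GRCm38.p6) matched 31 of the 35 genes. The window searched was the 250 bases before the transcription start, on both strands. The ER stress response element (ERSE; CCAAT, then 9 bases of any kind, then CCACG) was found in 9 of the 31 (29%), against 0.113% of all 32851 promoters of that length. These were 7 of 13 chaperones (Hspa5, Hsp90b1, Calr, Canx, Pdia6, Dnajc3 and Creld2), 2 of 6 degradation genes (Syvn1 and Derl3) and 0 of 9 ATF4 branch genes. The shorter ERSE-II (ATTGG, 1 base of any kind, CCACG) was in Herpud1, and in 0.0304% of all promoters. The UPRE core TGACGTG was in Hspa5, and in 1.65% of all promoters. The C/EBP-ATF core TGATGNAA was in 5 of 31: Atf3, Asns, Chac1 and Nupr1 of the ATF4 branch, and Herpud1; 3.45% of all promoters held it. The AHR core TNGCGTG was in 3 (Atf4, Edem1 and Sec61b), against 4.1% of all promoters. No match overlapped another. A match of letters is a description and shows no binding.

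The 5 promoters printed here set the 2 kinds of element side by side: a pair of chaperones with the ERSE on either strand, a pair from the ATF4 branch, and Herpud1, whose promoter holds one element of each kind. Capitals mark the fixed letters of ERSE, the whole ERSE-II, the UPRE core and the C/EBP-ATF core. The lines run 5′ to 3′ on the gene's own strand. Hspa5 (chr2:34771840-34772089, plus strand) holds the ERSE starting 65 bases before the start and the UPRE core at 157. In Creld2 (chr15:88819396-88819645, plus strand) the ERSE lies on the opposite strand, at 126. The C/EBP-ATF core lies on the opposite strand in Atf3 (chr1:191183334-191183583, minus strand) at 110, in Chac1 (chr2:119350992-119351241, plus strand) at 193, and in Herpud1 (chr8:94386179-94386428, plus strand) at 112, where ERSE-II follows at 52.
Hspa5: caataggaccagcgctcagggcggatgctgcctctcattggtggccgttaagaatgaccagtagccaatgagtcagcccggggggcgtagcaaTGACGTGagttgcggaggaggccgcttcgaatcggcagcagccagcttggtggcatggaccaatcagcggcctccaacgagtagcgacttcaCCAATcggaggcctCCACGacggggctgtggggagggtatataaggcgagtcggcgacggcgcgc
Creld2: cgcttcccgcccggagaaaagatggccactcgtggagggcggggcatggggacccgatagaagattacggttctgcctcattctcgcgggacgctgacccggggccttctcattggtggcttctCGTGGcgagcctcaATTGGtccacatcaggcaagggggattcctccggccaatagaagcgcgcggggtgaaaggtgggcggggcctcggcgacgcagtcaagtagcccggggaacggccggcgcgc
Atf3: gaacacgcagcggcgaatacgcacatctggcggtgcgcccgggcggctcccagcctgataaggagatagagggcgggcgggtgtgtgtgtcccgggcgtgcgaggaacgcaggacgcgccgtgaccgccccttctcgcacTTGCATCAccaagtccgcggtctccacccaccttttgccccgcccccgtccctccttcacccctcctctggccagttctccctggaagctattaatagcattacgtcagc
Chac1: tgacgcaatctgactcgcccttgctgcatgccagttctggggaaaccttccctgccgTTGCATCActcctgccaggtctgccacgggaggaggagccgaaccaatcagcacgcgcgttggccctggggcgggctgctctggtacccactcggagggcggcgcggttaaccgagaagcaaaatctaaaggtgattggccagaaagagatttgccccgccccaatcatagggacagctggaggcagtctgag
Herpud1: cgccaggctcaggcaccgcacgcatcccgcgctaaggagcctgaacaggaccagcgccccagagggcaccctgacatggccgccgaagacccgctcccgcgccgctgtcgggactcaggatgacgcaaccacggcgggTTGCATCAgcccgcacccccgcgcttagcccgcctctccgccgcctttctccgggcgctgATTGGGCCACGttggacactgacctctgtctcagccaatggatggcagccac

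Several arrays stood apart before any gene of the list was considered. The deposited values had a trimmed mean of 500 in the 3 wild type TCDD arrays and 150 in the other 9, and all were rescaled to 150; whether those 3 arrays differed in more than scale cannot be told apart from their treatment. The mouse Ahr probe set read 617 and 442 in replicate 2 of wild type vehicle and TCDD. It read 223 to 261 on the other wild type arrays and 193 to 236 in human AHR arrays. Whether this probe set reads the removed stretch was not examined, so it checks no label. Both wild type arrays with replicate number 2 had Xist signals of 3085 and 2952, against at most 29.3 on the other 10 arrays. Eif2s3y, a Y chromosome gene, read 4.7 and 0.42 on these 2 arrays and 453 to 765 on the other 10. The labels give no sex, and what part sex plays in the values of these 2 arrays was not tested. Tiparp, an AHR target, read 2575, 3324 and 2534 in wild type TCDD replicates 1, 2 and 3 against 911 to 1402 in wild type vehicle, but Cyp1a1 read 125, 2518 and 64.9 there, and 4004 to 6939 in the 3 human AHR TCDD arrays. Under vehicle Cyp1a1 read 18.5 to 25.3 in wild type and 60.5 to 81.9 in human AHR arrays. All 3 wild type TCDD arrays thus lay above wild type vehicle, replicates 1 and 3 by far less than replicate 2. In wild type TCDD replicate 3, Tat, a glucocorticoid-induced liver enzyme, read 1072 against 216 to 486 on the other 11 arrays, and Ighm, an immunoglobulin gene, 1221 against 80.2 to 481. The 4 plasma and B cell markers summed to 126 to 1307 in wild type TCDD and 151 to 519 in the other 3 groups, with Jchain at 21.6 or less on every array. The hepatocyte markers Alb, Ttr and Apoa1 were bright on every array (10484 to 17215). Signals of the 3′ over the 5′ probe sets were 0.798 to 0.841 for Gapdh and 1.33 to 1.56 for Actb. These are bulk samples, so fewer cells of a type and less RNA per cell cannot be told apart.

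No gene of the list passed the test (limma, Benjamini-Hochberg adjusted p under 0.05 over all 18193 genes) in any of the 6 comparisons. Few genes passed at all: 0.0055% for TCDD in wild type, 0.022% for TCDD in human AHR cells, 0% for the difference of those effects, 0.0055% for genotype under vehicle, 0% for genotype under TCDD and 0.022% for TCDD averaged over the genotypes. At an unadjusted p under 0.05 the list gave 0 genes in 5 comparisons and 2 in the comparison of genotypes under vehicle (Ern1 and Calr). The share of all genes under that p was 4.18% for TCDD in wild type, 2.9% for TCDD with the human receptor, 3.14% for the difference, 4.23% for genotype under vehicle, 4.11% for genotype under TCDD and 3.55% for the average, so 2 of 35 is near the share of all genes. Counts of genes above or below a control are therefore descriptions of means. The feature of the data that the array values show most plainly is 1 array, wild type TCDD replicate 3, in which the ATF4 branch and most chaperones were at their highest.

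**Figure D1:**
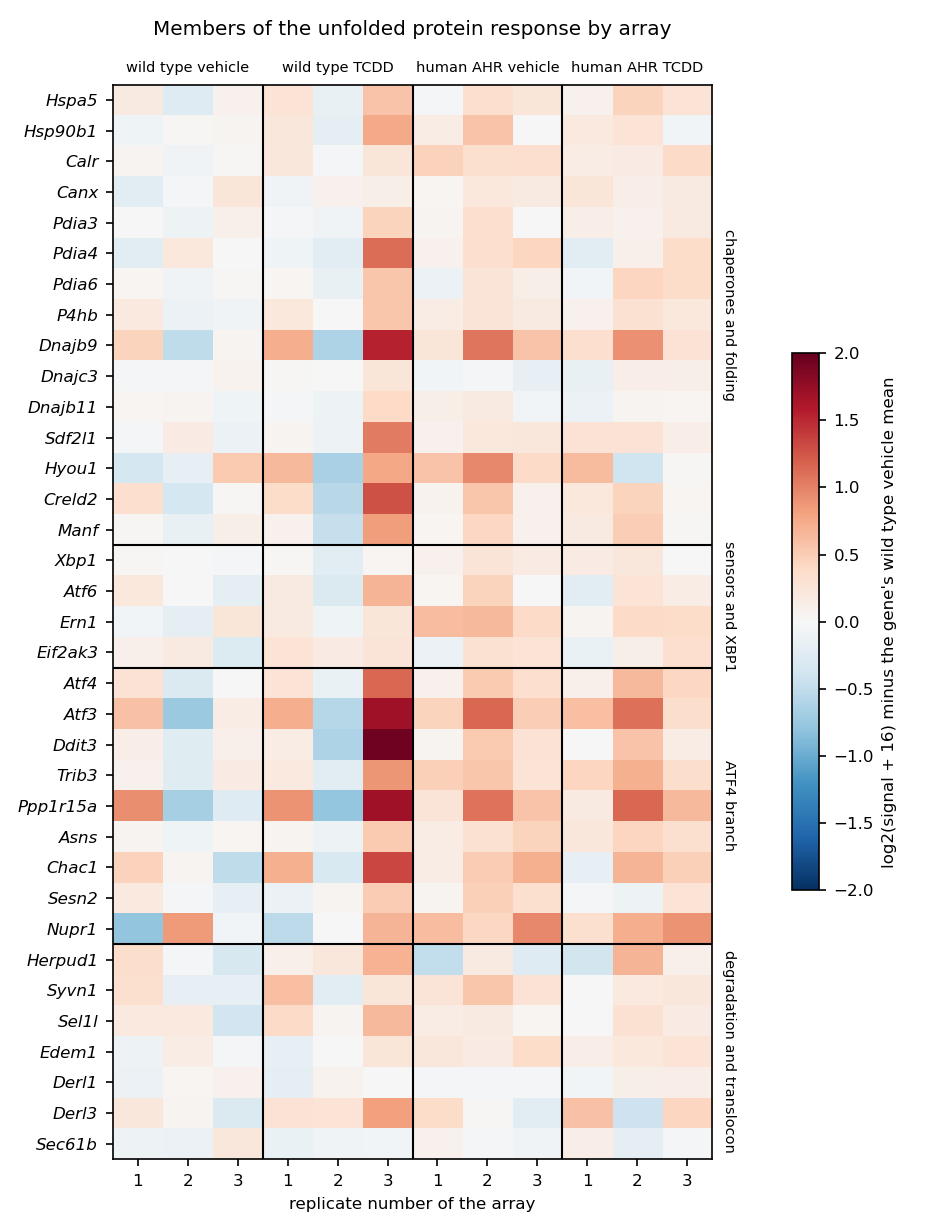
Level of each of the 35 genes (rows, by branch) on each of the 12 arrays (columns, by group and replicate number), as log2(signal + 16) minus the mean of that gene's 3 wild type vehicle arrays; red is above and blue below that mean. The wild type TCDD column of replicate 3 holds the highest value in 24 of the 35 rows, and the scale ends at 2 on either side.

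In the ATF4 branch the transcription factors came first. Values are rescaled signals in the order of replicates 1, 2 and 3. Atf4, the factor itself, read 3673, 2445 and 2971 in wild type vehicle, 3622, 2731 and 6644 in wild type TCDD, 3168, 4298 and 3789 in human AHR vehicle, and 3196, 4668 and 3977 in human AHR TCDD. Wild type TCDD replicate 3 stood above the other 11 arrays, while replicates 1 and 2 lay inside the wild type vehicle range. Ddit3, which encodes the pro-apoptotic factor CHOP, read 441, 335 and 431 in wild type vehicle, 445, 254 and 1578 in wild type TCDD, 418, 579.9 and 492 in human AHR vehicle, and 399, 603 and 442 in human AHR TCDD. Its signal in wild type TCDD replicate 3 was 4.52 times the mean of the other 2 TCDD arrays of that genotype and 2.58 times the highest other array, on the log2(signal + 16) scale. Atf3, a stress-induced repressor, read 1930.0, 760.0 and 1428 in wild type vehicle, 2127, 862 and 4167 in wild type TCDD, 1757, 2863 and 1799 in human AHR vehicle, and 1959.7, 2771 and 1646 in human AHR TCDD. In Atf3 the lowest arrays were both wild type replicate 2 arrays, and all 4 groups overlapped.

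Among the targets further down the branch the same array led. Ppp1r15a encodes GADD34, which brings phosphatase to eIF2-alpha and so restores translation. It read 1530.4, 495 and 662 in wild type vehicle, 1506, 459.7 and 2628 in wild type TCDD, 960.3, 1708 and 1192 in human AHR vehicle, and 905, 1786 and 1256 in human AHR TCDD. Chac1, which degrades glutathione, read 271, 202 and 132 in wild type vehicle, 326, 154 and 514 in wild type TCDD, 215, 284 and 326 in human AHR vehicle, and 171, 321 and 276 in human AHR TCDD. Trib3, a pseudokinase that restrains the branch, read 277, 216 and 291 in wild type vehicle, 297, 221 and 493 in wild type TCDD, 366, 388 and 318 in human AHR vehicle, and 353, 435 and 336 in human AHR TCDD. The human AHR arrays of Trib3 lay between 318 and 435, above the 3 wild type vehicle arrays and above wild type TCDD replicates 1 and 2. A second Trib3 probe set was nearly as bright, with a mean signal of 297 against 333. Human AHR minus wild type was -0.03 under vehicle and -0.04 under TCDD on it, against 0.44 and 0.21 on the brightest (log2 scale). Asns, the asparagine synthetase, read 1359, 1236 and 1345 in wild type vehicle, 1358, 1227 and 1891 in wild type TCDD, 1458, 1626 and 1789 in human AHR vehicle, and 1543, 1778 and 1648 in human AHR TCDD. Sesn2, a stress-induced regulator of growth signalling, ranged from 125 to 207 and was also highest in wild type TCDD replicate 3, by a factor of 1.02 over the next array. Nupr1, a small stress-induced chromatin protein, was dim at 2.6 to 46.6, and it alone of the 9 was highest elsewhere, in human AHR vehicle replicate 3. At such signals the offset of 16 shrinks folds.

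The chaperones varied less, with a median span over the 12 arrays of 0.83 on the log2 scale against 1.75 in the ATF4 branch. Hspa5, the gene of BiP, which holds the 3 sensors inactive, read 11654, 8654 and 10968 in wild type vehicle, 12551, 9379 and 15387 in wild type TCDD, 10153, 13096 and 12264 in human AHR vehicle, and 10955, 14078 and 12442 in human AHR TCDD. The span of Hspa5 from the lowest array to the highest other than wild type TCDD replicate 3 was 0.70 on the log2 scale, and that array lay 0.13 above the next. Dnajb9, a BiP co-chaperone, read 2221, 1143 and 1699 in wild type vehicle, 2718, 1057 and 4775 in wild type TCDD, 1928, 3442 and 2417 in human AHR vehicle, and 2059, 3079 and 1985 in human AHR TCDD. Creld2, a secreted ER stress marker, read 1021, 632 and 822 in wild type vehicle, 1050.0, 544 and 1980.4 in wild type TCDD, 849, 1200.1 and 859.8 in human AHR vehicle, and 941, 1104 and 836 in human AHR TCDD. In Dnajb9 and Creld2 both wild type replicate 2 arrays were the lowest of the 12 and wild type TCDD replicate 3 the highest. Sdf2l1, a partner of BiP complexes, read 458 in that array and 196 to 268 elsewhere. Pdia4, a disulfide isomerase, read 329 there and 119 to 197 elsewhere. Manf, a secreted ER protein, read 4017 there and 1636 to 3178 elsewhere. Hsp90b1, the ER form of HSP90, read 3153, 3406 and 3449.9 in wild type vehicle, 3924, 2947 and 5624 in wild type TCDD, 3688, 4939.6 and 3315 in human AHR vehicle, and 3828, 4050.3 and 3217 in human AHR TCDD.

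Wild type TCDD replicate 3 was the highest of the 12 arrays in 12 of the 15 chaperones. The exceptions were Calr and Canx, the calreticulin and calnexin lectins that hold glycoproteins, and Hyou1, a nucleotide exchange factor for BiP. Canx ranged from 2425 to 3334 and was highest in human AHR TCDD replicate 1. Hyou1 was uneven in every group and read 281, 323 and 528 in wild type vehicle, 578, 226 and 635 in wild type TCDD, 550.1, 720.1 and 479 in human AHR vehicle, and 571, 274 and 368 in human AHR TCDD. Dnajc3, an inhibitor of eIF2-alpha kinases, ranged from 1949.8 to 2581 over the 12 arrays. The other 4, all highest in wild type TCDD replicate 3, were the disulfide isomerases Pdia3 (2734 to 3965), Pdia6 (1525 to 2481) and P4hb (6092 to 9687) and the BiP co-chaperone Dnajb11 (566 to 817).

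Among the sensors and XBP1 the same array stood less apart. Xbp1 read 4196, 4081 and 4043 in wild type vehicle, 4179, 3549.5 and 4229 in wild type TCDD, 4345, 4937 and 4589 in human AHR vehicle, and 4613, 4829.6 and 4090.4 in human AHR TCDD. Its 12 values spanned 0.47 on the log2 scale; its splicing by IRE1 was not analysed here. Ern1 read 264, 236 and 328 in wild type vehicle, 311, 258 and 326 in wild type TCDD, 426, 439.7 and 361 in human AHR vehicle, and 286, 361 and 359 in human AHR TCDD. All 3 human AHR vehicle arrays of Ern1 lay above all 3 wild type vehicle arrays. Atf6 was the one gene of the 4 that was highest in wild type TCDD replicate 3, at 533 against 263 to 448 elsewhere. Eif2ak3 ranged from 159 to 252, and all groups overlapped.

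The degradation branch was mixed. Herpud1, a scaffold of the retrotranslocation complex, read 2454, 1877 and 1545 in wild type vehicle, 2076, 2257 and 3123 in wild type TCDD, 1358, 2173 and 1609 in human AHR vehicle, and 1479.8, 3094 and 2072 in human AHR TCDD. It was highest in wild type TCDD replicate 3 (3123), but human AHR TCDD replicate 2 was close behind (3094). Sel1l, the adaptor of the HRD1 ligase, read 698, 696 and 462 in wild type vehicle, 795, 629.7 and 967 in wild type TCDD, 673, 689 and 626 in human AHR vehicle, and 604, 751 and 687 in human AHR TCDD. Syvn1, which encodes HRD1 itself, read 806, 567 and 570.3 in wild type vehicle, 977, 545 and 758 in wild type TCDD, 769, 947 and 785 in human AHR vehicle, and 641, 737 and 749 in human AHR TCDD. Derl3, an inducible derlin, was dim and read 36.7, 30.4 and 20.8 in wild type vehicle, 38.7, 37.9 and 63 in wild type TCDD, 41.8, 29.4 and 22.5 in human AHR vehicle, and 51.5, 17.5 and 44.2 in human AHR TCDD. Edem1, which extracts misfolded glycoproteins, ranged from 739 to 1083, Derl1 from 1089.8 to 1372, and Sec61b, a translocon subunit, from 1597 to 2124, and none of the 3 was highest in wild type TCDD replicate 3.

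**Figure D2:**
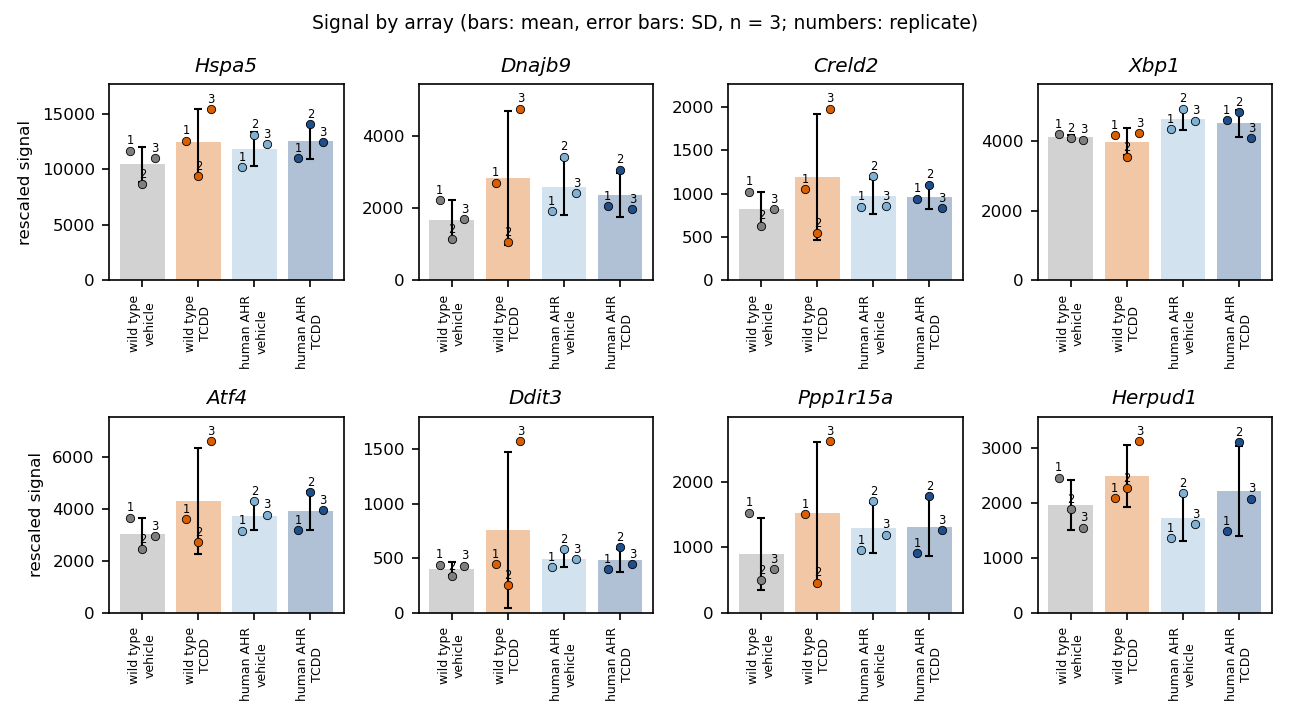
Rescaled signal (linear axes from 0) of 8 of the genes in the 4 groups; bars are means, error bars are SD over 3 arrays, and each point is an array with its replicate number. In wild type TCDD replicate 3 lies above replicates 1 and 2 in all 8, most widely in Ddit3, with 1578 against 445 and 254, while Xbp1 lies between 3549.5 and 4937 on all arrays.

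Taking each branch as the mean of its genes, relative to wild type vehicle on the log2(signal + 16) scale, gave the same picture. The ATF4 branch stood at 0.26, -0.29 and 1.16 in wild type TCDD replicates 1, 2 and 3, and at 0.22, -0.16 and -0.06 in wild type vehicle. The chaperones stood at 0.18, -0.21 and 0.70 in wild type TCDD. In human AHR cells the ATF4 branch stood at 0.26, 0.62 and 0.49 under vehicle and at 0.18, 0.66 and 0.43 under TCDD, so that each TCDD array was close to the vehicle array of its own number. The group means were 0.38 ± 0.73 (SD, n = 3) in wild type TCDD, 0.45 ± 0.18 in human AHR vehicle and 0.42 ± 0.24 in human AHR TCDD. The wild type TCDD mean was thus smaller than its own SD, and it lay below both human AHR means.

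**Figure D3:**
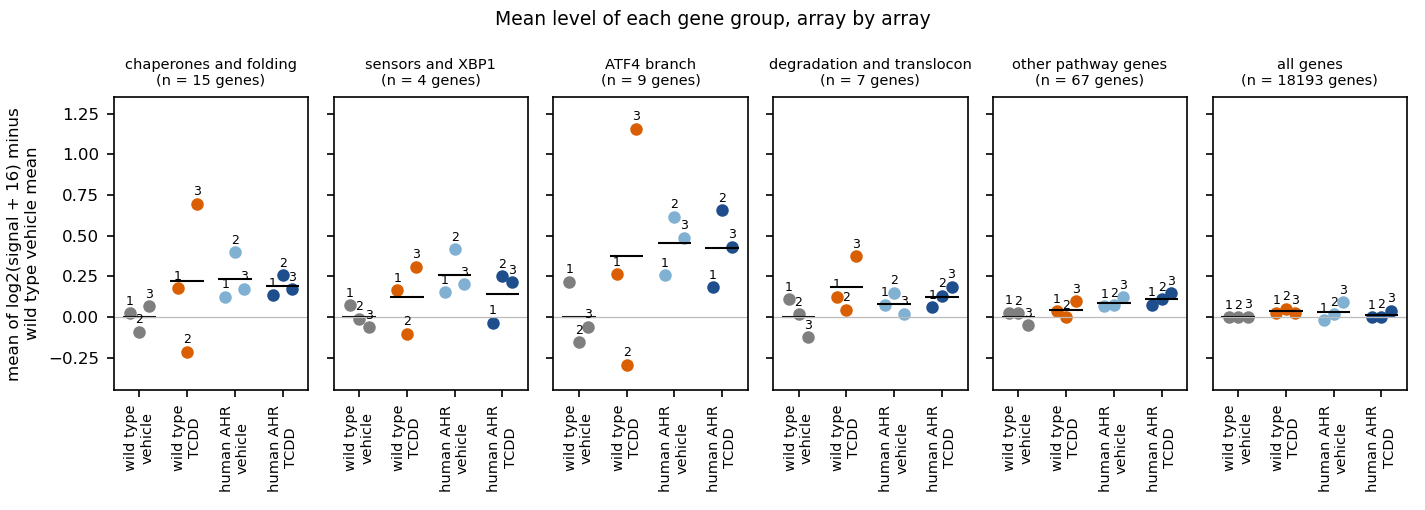
Mean over the genes of each branch, of 67 other pathway genes and of all 18193 genes (panels), on each array, as log2(signal + 16) minus the wild type vehicle mean; points are arrays with their replicate numbers and black lines are group means. Wild type TCDD replicate 3 lies at 1.16 in the ATF4 branch and 0.70 in the chaperones, but near the other arrays in the panels of other pathway genes and all genes.

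The height of wild type TCDD replicate 3 was set against the mean of the other 2 wild type TCDD arrays. All 35 genes lay higher in it, by a median of 0.54 on the log2 scale, and 10 by more than 1. The median was 1.08 in the ATF4 branch, 0.61 in the chaperones, 0.32 in the degradation branch and 0.16 in the sensors. Over all genes the median was -0.01 and 2.20% exceeded 1. Over 67 other genes of the pathway it was 0.02. The array held the highest value of the 12 in 68.6% of the list, in 22.4% of the other pathway genes and in 17.3% of all genes. Wild type TCDD replicate 2 was lowest in 12 of the 35 (34.3%), against 9.97% of all genes. The promoter classes did not separate by this measure: the 7 chaperones with an ERSE had a median of 0.50 and the 6 without one 0.77, and the 4 ATF4 branch genes with the C/EBP-ATF core had 1.04 against 1.08 in the 5 without. Wild type TCDD replicate 3 also had high Tat and Ighm signals, and a low Cyp1a1 signal, which wild type TCDD replicate 1 shared. The part that these signals play in the values of the list was not tested.

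Under TCDD in wild type cells the mean lay above vehicle in 32 of the 35 genes, with a median of 0.24 against 0.03 over all genes; with the arrays set to a shared median instead, 26 did. Of the chaperones 15 of 15 lay above, of the ATF4 branch 9 of 9, of the sensors 3 of 4 and of the degradation branch 5 of 7. With wild type TCDD replicate 3 left out, 17 of the 35 lay above and the median was -0.0041 (chaperones 7 of 15, ATF4 branch 4 of 9, sensors 2 of 4, degradation branch 4 of 7). In 1 gene, Derl3, the lowest TCDD array exceeded the highest vehicle array, against 6.18% of all genes, and 0 genes were separated the other way, against 2.82%. The smallest p in each branch was that of Sel1l at 0.36 (SE 0.18, 95% confidence interval -0.03 to 0.75, unadjusted p = 0.0683, adjusted p = 0.966), P4hb at 0.25 (SE 0.15, unadjusted p = 0.125, adjusted p = 0.966), Atf4 at 0.43 (SE 0.27, 95% confidence interval -0.15 to 1.02, unadjusted p = 0.136, adjusted p = 0.966) and Eif2ak3 at 0.24 (SE 0.18, unadjusted p = 0.205, adjusted p = 0.966), all by limma. Dimmer probe sets of Sel1l gave 0.11, -0.06, 0.26 and -0.12, those of Atf4 0.27 and 0.03, and those of Eif2ak3 -0.15 and -0.01. The largest log2 differences were those of Atf3 (0.62), Ppp1r15a (0.61) and Chac1 (0.58), and Ddit3 stood at 0.49 with an interval from -0.49 to 1.46. Without wild type TCDD replicate 3 Ddit3 stood at -0.24, Atf3 at 0.08, Atf4 at 0.07 and Ppp1r15a at 0.07, and without replicate 2 they stood at 1.04, 1.21, 0.71 and 1.30. Marker sums of some other cell types did not overlap between these 2 groups: stellate markers (6 genes) summed to 52.8 to 99 under TCDD and 99.7 to 118 under vehicle, cholangiocyte markers (4 genes) to 602 to 693 and 764 to 929.6, and endothelial markers (5 genes) to 123 to 144 and 103 to 115. The stellate and endothelial sums were dim, and the stellate ones nearly met. Most of the cholangiocyte sum was Krt19, at -0.45, beside Krt7 at -0.41, Epcam at -0.05 and Sox9 at 0.04. Of the endothelial genes Tek stood at 0.34, Kdr at 0.33, Pecam1 at 0.31, Cdh5 at 0.14 and Stab2 at 0.003. Acta2 stood at -0.65, Lrat at -0.42 and Dcn at -0.23, but Col1a1 and Col1a2 at -0.02 and Col3a1 at 0.14. Sums of hepatocyte (43102 to 51516 and 38612 to 46720) and macrophage markers (3226 to 5041 and 3164 to 4250) overlapped. Their part in the values of the list was not tested.

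**Figure D4:**
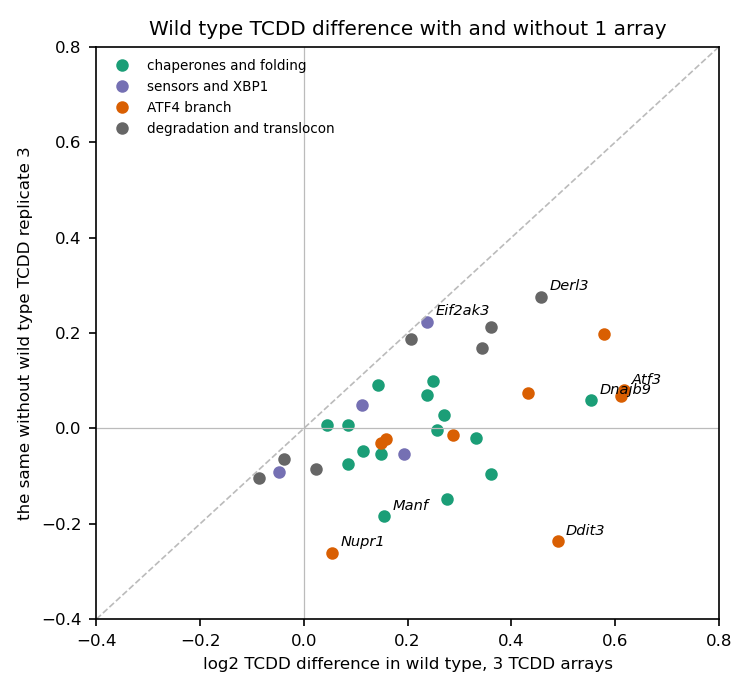
Difference between TCDD and vehicle in wild type cells for each of the 35 genes, with all 3 TCDD arrays (horizontal axis) and without replicate 3 (vertical axis), both on the log2(signal + 16) scale; colours are branches and the dashed line is equality. Every point lies below the line because all 35 genes lay higher in replicate 3 than in the mean of the other TCDD arrays. Ddit3 moves from 0.49 to -0.24.

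In human AHR cells, where TCDD gave the higher Cyp1a1 signals, the means of the list lay on both sides of vehicle. The mean lay above vehicle in 15 of 35 genes and below in 20, with a median of -0.01, the same as over all genes; with a shared median of the arrays 20 lay above. Leaving out 1 array moved this count to 9 (human AHR vehicle replicate 1 or TCDD replicate 2) or to 24 (vehicle replicate 2). By branch 7 of 15 chaperones, 0 of 4 sensors, 4 of 9 ATF4 branch genes and 4 of 7 degradation genes lay above. The 2 groups were separated with TCDD higher in 0 genes (3.34% of all genes) and with TCDD lower in 2, Ern1 and Syvn1 (3.87%). By limma the smallest p values by branch were those of Ern1 at -0.28 (SE 0.16, 95% confidence interval -0.62 to 0.07, unadjusted p = 0.104, adjusted p = 1), Hyou1 at -0.55 (SE 0.36, unadjusted p = 0.149, adjusted p = 1), Herpud1 at 0.33 (SE 0.26, unadjusted p = 0.233, adjusted p = 1) and Sesn2 at -0.24 (SE 0.20, unadjusted p = 0.241, adjusted p = 1). Dimmer probe sets of Ern1 gave 0.12, -0.17, -0.02 and -0.23, and those of Hyou1 -0.12 and 0.26. The second probe set of Herpud1 gave 0.22 and that of Sesn2 0.19. For Ddit3 the interval of the difference ran from -1.03 to 0.92 around -0.05, and for Hspa5 from -0.34 to 0.49 around 0.08. Subtracting the vehicle array of the same number gave list means of -0.04, -0.07 and 0.02 in human AHR cells and 0.09, -0.09 and 0.72 in wild type cells.

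**Figure D5:**
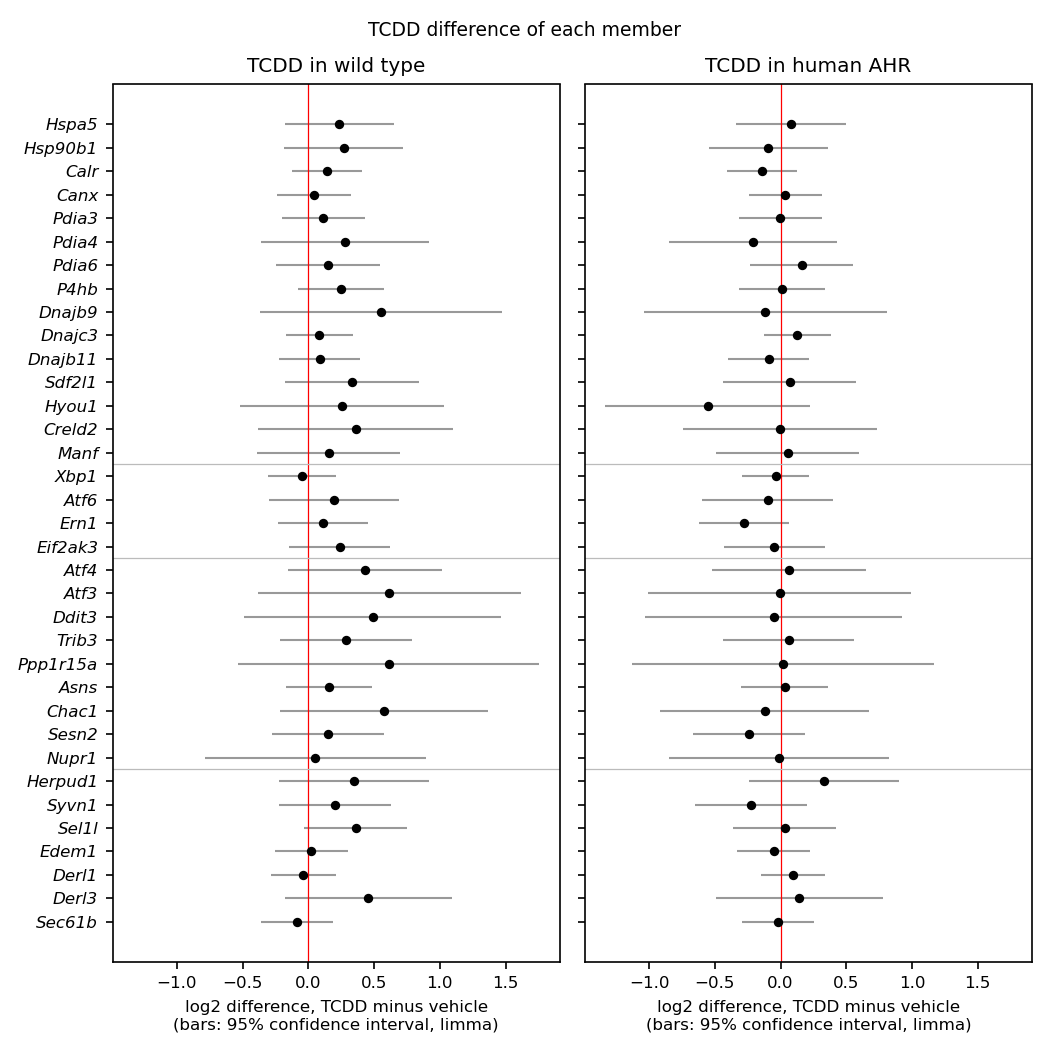
Difference between TCDD and vehicle (log2 scale) for each of the 35 genes in wild type (left) and human AHR cells (right); points are limma estimates from 3 arrays a group, bars are 95% confidence intervals, and grey lines part the branches. Every interval includes 0, the wild type points lie mostly to the right of it and the human AHR points on both sides.

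The difference between the 2 TCDD effects (human AHR minus wild type) was below 0 in 30 of 35 genes, with a median of -0.28 against -0.04 over all genes, and in 23 with a shared median of the arrays. The smallest p values by branch were those of Ern1 at -0.39 (SE 0.23, unadjusted p = 0.106, adjusted p = 0.998), Calr at -0.28 (SE 0.17, unadjusted p = 0.124, adjusted p = 0.998), Syvn1 at -0.43 (SE 0.28, unadjusted p = 0.145, adjusted p = 0.998) and Sesn2 at -0.39 (SE 0.28, unadjusted p = 0.185, adjusted p = 0.998), by limma. On dimmer probe sets Ern1 gave 0.01, -0.57, -0.78 and 0.02, and Calr -0.12 and -0.15. The second probe set of Syvn1 gave -0.61 and that of Sesn2 -0.01. With wild type TCDD replicate 3 left out the difference lay above 0 in 17 of the 35, with a median of -0.0063. Averaged over both genotypes, TCDD minus vehicle was above 0 in 27 of 35 genes (22 with a shared median, and 17 without wild type TCDD replicate 3), and the smallest p was that of Herpud1 at 0.34 (SE 0.19, 95% confidence interval -0.07 to 0.74, unadjusted p = 0.0942, adjusted p = 0.997). Beside it, by branch, stood Atf4 at 0.25 (SE 0.19, unadjusted p = 0.217, adjusted p = 0.997), Dnajc3 at 0.11 (SE 0.08, unadjusted p = 0.231, adjusted p = 0.997) and Eif2ak3 at 0.09 (SE 0.13, unadjusted p = 0.467, adjusted p = 0.997), all by limma. Dimmer probe sets gave 0.29 in Herpud1, 0.10 and -0.10 in Atf4, -0.03, -0.03, 0.06 and 0.07 in Dnajc3, and 0.08 and -0.0005 in Eif2ak3.

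Between the genotypes under vehicle, the human AHR mean was above the wild type mean in 31 of 35 genes, with a median of 0.23 against 0.03 over all genes (30 with a shared median). All 9 ATF4 branch genes, 14 of 15 chaperones and 4 of 4 sensors lay above, and 4 of 7 degradation genes. The ATF4 branch median was 0.44, with Atf3 at 0.70, Nupr1 at 0.66 and Ppp1r15a at 0.64. These rested in part on single wild type vehicle arrays. With both wild type replicate 2 arrays left out Atf3 stood at 0.33 and Ppp1r15a at 0.31, and without wild type vehicle replicate 1 Ppp1r15a stood at 1.11 and Nupr1 at 0.26. The second, dimmer probe set of Nupr1 gave -0.11 over all arrays. In 6 genes (Calr, Xbp1, Ern1, Trib3, Asns and Edem1) all human AHR arrays lay above all wild type arrays, against 6.27% of all genes, and in 1 (Dnajc3) below, against 4.41%. This held for the brightest probe sets. The second brightest gave differences of 0.40 in Calr, 0.23 in Xbp1, 0.21 in Ern1 and 0.23 in Asns, but -0.03 in Trib3 and 0.0016 in Edem1. Calr, the lectin chaperone that also holds calcium, read 5265, 4806 and 4819 in human AHR and 3962, 3658 and 3872 in wild type cells. By limma Ern1 stood at 0.55 (SE 0.16, 95% confidence interval 0.20 to 0.89, unadjusted p = 0.00432, adjusted p = 0.965) and Calr at 0.37 (SE 0.12, 95% confidence interval 0.11 to 0.64, unadjusted p = 0.00954, adjusted p = 0.965), Asns at 0.30 (SE 0.15, unadjusted p = 0.0705, adjusted p = 0.965) and Edem1 at 0.25 (SE 0.13, unadjusted p = 0.0717, adjusted p = 0.965). Summed macrophage markers (6 genes) were 3085 to 5181 in these human AHR arrays and 3164 to 4250 in the wild type ones, with Marco at 3.10 to 102 against 0.90 to 2.80 and Clec4f at 7.60 to 64.9 against 2.70 to 8.40. Most of that sum is Cd68 and Cd14. The 5 endothelial markers summed to 120 to 224 against 103 to 115, without overlap. All 5 were dim, with Pecam1 at 0.78, Cdh5 at 0.54, Tek at 0.35, Kdr at 0.13 and Stab2 at -0.07. The part of these markers in the difference was not tested.

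Under TCDD the genotype comparison turned on single wild type arrays. The human AHR mean lay above the wild type mean in 16 of 35 genes, with a median of -0.05, and in 21 with a shared median of the arrays. Without wild type TCDD replicate 3 the median was 0.18, with 15 of 15 chaperones and 9 of 9 ATF4 branch genes above (30 of 35 in all). Without wild type TCDD replicate 2 the median was -0.19 and 8 of 35 lay above. One gene, Canx, had all human AHR arrays above all wild type arrays (3.23% of all genes) and 0 had them below (4.86%). By limma the smallest p values by branch were those of Nupr1 at 0.60 (SE 0.39, unadjusted p = 0.149, adjusted p = 1), Xbp1 at 0.18 (SE 0.12, unadjusted p = 0.157, adjusted p = 1), Edem1 at 0.18 (SE 0.13, unadjusted p = 0.193, adjusted p = 1) and Canx at 0.14 (SE 0.13, unadjusted p = 0.297, adjusted p = 1). On dimmer probe sets Nupr1 gave -0.05, Edem1 -0.11, Xbp1 0.26, 0.28 and -0.13, and Canx 0.18 and -0.18. The genotype comparisons and the TCDD comparisons share their arrays, so their values are not independent of each other.

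The wider pathway was read from 71 further genes, of which 67 were measured: other folding enzymes, kinases and factors, ATF4 targets such as amino acid transporters, and degradation and translocon subunits. None passed in any of the 6 comparisons by limma. At an unadjusted p under 0.05 there were 5 for TCDD in wild type (1 above vehicle and 4 below), 2 for TCDD in human AHR cells (both above), 2 for the difference, 4 for genotype under vehicle (2 each way), 2 for genotype under TCDD and 0 for the average. Over all 18193 genes the counts were 761 for TCDD in wild type (545 above vehicle and 216 below), 528 in human AHR cells, 572 for the difference, 770 for genotype under vehicle, 747 for genotype under TCDD and 646 for the average. The smallest p values were those of Ssr2, a translocon-associated protein, in the difference (log2 0.60, SE 0.18, unadjusted p = 0.00628, adjusted p = 0.998) and of Atf5, a factor related to ATF4, between genotypes under vehicle (log2 0.73, SE 0.25, unadjusted p = 0.0106, adjusted p = 0.965). Slc7a11, the cystine transporter and an ATF4 target, came next between the genotypes under vehicle (log2 0.59, SE 0.20, unadjusted p = 0.0123, adjusted p = 0.965). For TCDD in wild type the smallest were Rnf5, a membrane ubiquitin ligase, at -0.39 (unadjusted p = 0.027) and Ssr2 at -0.32 (unadjusted p = 0.0301), and in human AHR cells Bbc3, the pro-apoptotic PUMA, at 0.51 (unadjusted p = 0.041) and Ssr2 at 0.28 (unadjusted p = 0.0497). Medians over the 67 lay between 0.00 and 0.06 in all 6 comparisons, but the branches differed. For TCDD in wild type the median was 0.13 in 23 other ATF4 genes (17 above vehicle) and -0.10 in 8 other sensors and factors (3 above). It was 0.05 in 14 folding genes and 0.01 in 22 degradation genes. For genotype under vehicle these medians were 0.17 (19 of 23 above), 0.04, 0.06 and 0.04.

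Spread between arrays differed by branch. The median SD of the ATF4 branch genes was 0.65 on the log2 scale in wild type TCDD, 0.29 in wild type vehicle, 0.23 in human AHR vehicle and 0.30 in human AHR TCDD. For the chaperones it was 0.36 in wild type TCDD and 0.15 in wild type vehicle. Over all genes the corresponding medians were 0.27 in wild type TCDD and 0.21 in wild type vehicle. Of the genes on the list, 24 had further probe sets, 44 in all, and 31 of these 44 had the sign of the brightest one for TCDD in wild type, 23 for TCDD in human AHR cells and 33 for genotype under vehicle.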

How the data were processed

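RNA was measured on Affymetrix arrays, 3 in each of 4 groups. The deposited intensities are linear. Per the submitters' processing notes they were made by the authors with PLIER in Affymetrix Expression Console 1.1, although their equal trimmed means (2% off each end) are those of global scaling. Each array was rescaled here to a trimmed mean of 150 and log2(signal + 16) was taken. Probe sets with 1 gene symbol (34945 of 45101) gave 18193 genes, the brightest probe set standing for each. limma 3.58.1 (R 4.3.3, lmFit and eBayes with an intensity trend) was fitted to 12 arrays with 4 group means (8 residual degrees of freedom) and Benjamini-Hochberg adjustment over all genes. The number of arrays limits precision. Per the design text each array held 1 mouse.

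The genes and lists were chosen with earlier results of these data known. Full statistics were given for genes called and for the smallest p in each branch. Of deviations from group means over all genes, same-numbered arrays correlated at 0.19 to 0.27 in human AHR cells, which counted as paired, and at 0.05 to 0.51 in wild type cells, which did not. The reported fit used no pairing in either genotype, so its errors and p values in human AHR cells leave any pairing out. With the replicate block within genotype 0 of the 35 genes were called for TCDD in human AHR cells. In this balanced design the block leaves the mean differences unchanged, 15 of 35 above vehicle included. Only errors and p values could change. The fit was tested on simulated data. The SAM test named in the design text was not run. Promoters were read from RefSeq tables with Python 3.11.15.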

Additional observations from a re-analysis of the deposited data

How the results depend on the processing

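No gene of the list was called in any of the 6 comparisons under the 23 or 24 alternatives run for each, which covered the offset, normalization, filter, intensity trend, array weights, probe sets, the replicate block and each array left out. Over all genes the calls ranged from 0 to 1 for TCDD in wild type (1 in the fit reported), 0 to 6 for TCDD with human AHR (4), 0 to 1 for the effect difference (0), 0 to 2 for genotype under vehicle (1), 0 to 4 for genotype under TCDD (0) and 1 to 6 for the average (4). With 1 array left out, the median of the list lay between -0.0041 and 0.42 for TCDD in wild type, -0.07 and 0.06 for TCDD with human AHR, -0.41 and -0.0063 for the difference, 0.15 and 0.29 for genotype under vehicle, -0.19 and 0.18 for genotype under TCDD, and -0.02 and 0.17 for the average. The value without wild type TCDD replicate 3 was -0.0041 for TCDD in wild type, -0.0063 for the difference and 0.18 for genotype under TCDD; the alternative uses 1 array fewer, and the cause was not tested. The replicate block within genotype cannot move the mean differences, so the median of 0.24 for TCDD in wild type was fixed in advance there. With that block the lowest adjusted p by limma for TCDD in wild type was 0.654, and genotype under vehicle gave 2 calls over all genes against 1. Setting the arrays to a shared median moved the median of all genes from 0.03 to -0.08 for TCDD in wild type and from -0.04 to 0.10 for the difference. With both wild type replicate 2 arrays left out, 33 of the 35 lay above vehicle for TCDD in wild type.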
